A study of Mus musculus with 12 samples.

Results

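The transcripts followed here are those of the phagocyte NADPH oxidase and of the cytosolic and mitochondrial superoxide dismutases: Cybb, Cyba, Ncf1, Ncf4, Rac2, Sod1 and Sod2. They were chosen by name, as the rows of the deposited count table with these 7 symbols among 21899 genes, and all 7 were among the 11656 genes that entered the test. Messenger levels were measured by RNA sequencing in primary macrophages grown from the marrow of wild-type mice. There were 4 groups of 3 libraries each: cells given PgLPS and CS-PA/CNP (called both agents below), cells given PgLPS, cells given CS-PA/CNP, and control cells, which share the wild-type genotype and received neither agent. The labels expand neither name and give no dose, time, age or sex of the animals, and nothing says that the libraries of a group came from separate animals or cultures.

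The phagocyte NADPH oxidase is an enzyme that passes electrons from NADPH across a membrane to oxygen and so makes superoxide, which phagocytes use against microbes. Its membrane core is a flavocytochrome of Cybb, the catalytic subunit that carries the flavin and haems, and Cyba, the smaller partner that stabilises it and docks the cytosolic subunits. On activation, the organizer Ncf1 and the accessory subunit Ncf4 are among the subunits that move from the cytosol to that core, together with a GTP-bound Rac protein, of which Rac2 is the form restricted to blood cells. Superoxide dismutases turn superoxide into hydrogen peroxide and oxygen. Sod1 is the copper and zinc enzyme of the cytosol, Sod2 the manganese enzyme of the mitochondrial matrix, and Sod3 a secreted copper and zinc enzyme. In macrophages, Sod2 and Cybb are known as genes whose transcripts rise with bacterial and interferon signals.

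The libraries held 16301947 to 19422021 reads with both agents, 14992707 to 19252143 with PgLPS, 16130784 to 20082900 with CS-PA/CNP and 15570148 to 17339556 in control. Levels are given as CPM, reads scaled to library size after correction by a TMM factor, which was 0.89 to 0.9005 with both agents, 0.853 to 0.875 with PgLPS, 1.115 to 1.124 with CS-PA/CNP and 1.147 to 1.161 in control. All 10 macrophage markers listed, among them Adgre1, Csf1r and Cd68, averaged over 1 CPM in every group, and their summed level was 30300 to 32000, 30800 to 33300, 26100 to 28100 and 23000 to 24800 CPM in the 4 groups in that order. Neutrophils also make this oxidase. Their 10 markers summed to 181 to 210 CPM with both agents, 228 to 254 with PgLPS, 116 to 169 with CS-PA/CNP and 154 to 187 in control. Between 3 and 5 of those 10 genes averaged under 1 CPM per group, Ly6g, Elane and Retnlg in all 4, while S100a9 was the highest (102 CPM with PgLPS and 59.8 CPM in control), and the part of these cells in the results was not tested. The 7 dendritic cell and the 7 lymphocyte markers each summed to at most 5.54 and 3.61 CPM in a library. The 6 stromal markers summed to at most 4.62 CPM in the other groups and to 5.82 to 53.5 CPM with PgLPS, highest in library 1, and their part was not tested either. In bulk RNA, fewer cells of a type and less RNA per cell cannot be told apart.

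The catalytic subunit changed far more than its membrane partner. Cybb (ENSMUSG00000015340, chromosome X) had 4390.5, 3806 and 4439 CPM in the 3 libraries with both agents, 5903, 4902 and 5458 with PgLPS, 894, 865 and 867 with CS-PA/CNP, and 682, 604 and 637 in control. Every library with PgLPS or both agents lay several-fold above every library without PgLPS, and the 4 groups did not overlap. Cyba (ENSMUSG00000006519, chromosome 8) had 541, 694 and 569.6 CPM with both agents, 544, 738 and 619.9 with PgLPS, 437, 478 and 538 with CS-PA/CNP, and 344, 427 and 409 in control. Its groups lay close together, those with PgLPS and with both agents overlapped, and library 2 was the highest of its group in both of these.

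The cytosolic subunits Ncf1 and Ncf4 were both highest with PgLPS and lowest in control by group mean. Ncf1 (ENSMUSG00000015950, chromosome 5) had 296, 326 and 303 CPM with both agents, 309, 349.7 and 307 with PgLPS, 253, 249 and 262 with CS-PA/CNP, and 226, 229 and 227 in control. Ncf4 (ENSMUSG00000071715, chromosome 15), whose protein binds a membrane phosphoinositide of phagosomes, had 318, 332 and 323 CPM with both agents, 374, 428 and 385 with PgLPS, 168, 176 and 187 with CS-PA/CNP, and 117, 119 and 121 in control. The 4 groups of Ncf4 were fully separated, while for Ncf1 the groups with both agents and with PgLPS overlapped. Exons of Ncf1 overlap Gtf2ird2 on the opposite strand, and the counting is not stated to use strand, so some reads counted for Ncf1 may belong to that gene. Rac2 (ENSMUSG00000033220, chromosome 15) had 729, 829 and 749.5 CPM with both agents, 954, 1112 and 1049 with PgLPS, 205, 206 and 213 with CS-PA/CNP, and 176, 189 and 187 in control. Its groups with PgLPS stood far above the others, and no groups overlapped.

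The dismutases were ordered in opposite ways by PgLPS. Sod1 (ENSMUSG00000022982, chromosome 16) had 139.9, 152 and 137 CPM with both agents, 81.6, 114 and 94.1 with PgLPS, 209.5, 206 and 238 with CS-PA/CNP, and 168, 181 and 188 in control. It was highest with CS-PA/CNP alone and lowest with PgLPS alone. Sod2 (ENSMUSG00000006818, chromosome 17) had 1832, 1894 and 1798 CPM with both agents, 2518, 2730.1 and 2549.9 with PgLPS, 242, 233 and 232 with CS-PA/CNP, and 97.6, 94 and 99.1 in control. No Sod1 group overlapped another and no Sod2 group did, and the highest Sod2 library with CS-PA/CNP alone was far below the lowest with PgLPS.

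**Figure D1:**
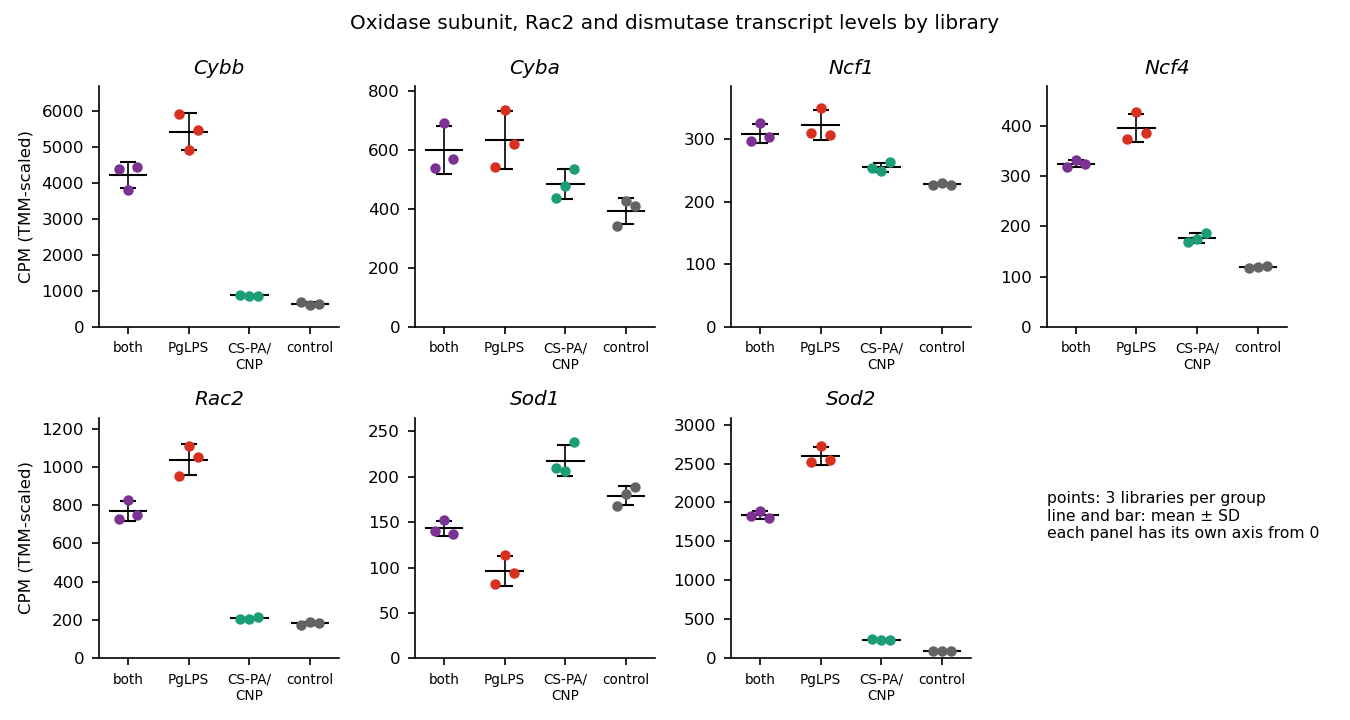
Level of each of the 7 transcripts in CPM (TMM-scaled) on a linear axis from 0, with 1 point per library and the mean ± SD of 3 libraries per group. Cybb, Ncf4, Rac2 and Sod2 are highest with PgLPS and lower with both agents, Sod1 is lowest with PgLPS (mean 96.6 CPM), and Cyba and Ncf1 overlap between PgLPS and both agents.

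The bases just before the start of transcription are shown for Sod2 and Sod1, whose transcripts moved in opposite directions with PgLPS against control and with both agents against PgLPS, and for Cybb, the oxidase subunit with the largest change with PgLPS. They are the 250 bases upstream of the start in the RefSeq promoter table of GRCm38.p6, which held 5 of the 7 genes, read 5′ to 3′ on the strand of the gene. Sod2 is at chr17:13007589-13007838 (plus strand), Sod1 at chr16:90220512-90220761 (plus strand) and Cybb at chrX:9469325-9469574 (minus strand). Capitals mark matches on either strand to the GC box of Sp1 (GGGCGG), the core of the PU.1 site (GAGGAA), the core of the antioxidant response element (TGACNNNGC) and the NF-kB consensus.
Sod2: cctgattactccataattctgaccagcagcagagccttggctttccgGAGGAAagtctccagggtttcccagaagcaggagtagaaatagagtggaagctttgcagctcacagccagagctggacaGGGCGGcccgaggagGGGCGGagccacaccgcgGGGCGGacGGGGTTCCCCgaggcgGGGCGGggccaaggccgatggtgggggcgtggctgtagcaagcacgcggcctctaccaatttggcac
Sod1: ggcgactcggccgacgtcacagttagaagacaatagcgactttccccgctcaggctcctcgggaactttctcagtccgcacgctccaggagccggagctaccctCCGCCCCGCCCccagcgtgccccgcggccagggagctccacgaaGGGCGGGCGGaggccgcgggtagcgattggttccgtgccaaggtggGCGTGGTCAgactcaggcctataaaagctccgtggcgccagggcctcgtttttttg
Cybb: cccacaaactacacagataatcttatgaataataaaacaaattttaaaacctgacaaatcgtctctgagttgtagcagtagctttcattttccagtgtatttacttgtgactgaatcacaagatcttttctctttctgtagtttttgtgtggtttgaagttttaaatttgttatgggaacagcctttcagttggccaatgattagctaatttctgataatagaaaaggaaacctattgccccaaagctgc
The Sod2 window held 4 GC boxes, 1 PU.1 core at −203 to −198 and 1 NF-kB consensus match at −83 to −74 from the start, which lies between GC boxes and overlaps none. The Sod1 window held 4 GC box matches, in pairs that overlap each other, and 1 antioxidant response element core at −56 to −48 on the opposite strand. The Cybb window held no match to any of the 4 as written. Shorter or looser forms of these motifs were not searched, so sites of the same factors may still be present there. Of the other windows, that of Cyba held 2 GC boxes and that of Ncf1 held 1. Among 32851 promoters of the same length in the table, 32.7% held a GC box, 23.3% the PU.1 core, 10.2% the antioxidant core and 7.25% the NF-kB consensus. These matches describe the letters of the window and were not measured as binding sites.

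PgLPS against control asks how the oxidase and dismutase transcripts responded to PgLPS alone. Sod2 was 26.8-fold higher, Cybb 8.45-fold, Rac2 5.65-fold and Ncf4 3.33-fold higher with PgLPS, while Cyba and Ncf1, the docking partner and the organizer, were 1.61-fold and 1.42-fold higher. Sod1 fell to 54% of its control level. Thus 6 of the 7 rose and 1 fell in the edgeR test, in which 63.8% of all tested genes were called. Among those calls 50.5% were rises, against 21.8% when libraries were scaled by their totals alone and 32.3% with upper-quartile factors, which shifted the all-gene median log2 fold change by −0.42 and −0.23.

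The mean level of Sod2 was 2599 ± 114 CPM with PgLPS and 96.9 ± 2.63 in control (SD, n = 3 each), a log2 fold change of 4.75 ± 0.06 (SE; edgeR Benjamini-Hochberg adjusted p = 4.85e-21). Only 1.76% of tested genes had a larger change in either direction. Cybb averaged 5421 ± 502 CPM with PgLPS and 641 ± 38.9 in control, a log2 fold change of 3.08 ± 0.08 (edgeR adjusted p = 3.14e-17), which 5.24% of tested genes exceeded. The log2 fold change of Rac2 was 2.5 ± 0.07 (edgeR adjusted p = 1.22e-16) and that of Ncf4 1.73 ± 0.06 (edgeR adjusted p = 1.11e-14). Cyba rose by 0.69 ± 0.11 (edgeR adjusted p = 2.38e-05) and Ncf1 by 0.5 ± 0.06 (edgeR adjusted p = 7.4e-07). Changes of that size were common: 35.5% of tested genes changed more than Cyba and 46.1% more than Ncf1. With library totals as the only scaling, Cyba stood at 0.27 and Ncf1 at 0.09, and Ncf1 was then not called (edgeR adjusted p = 0.181). Sod1 averaged 96.6 ± 16.4 CPM with PgLPS and 179 ± 10.4 in control, and fell by 0.89 ± 0.1 on the log2 scale (edgeR adjusted p = 1.31e-07).

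**Figure D2:**
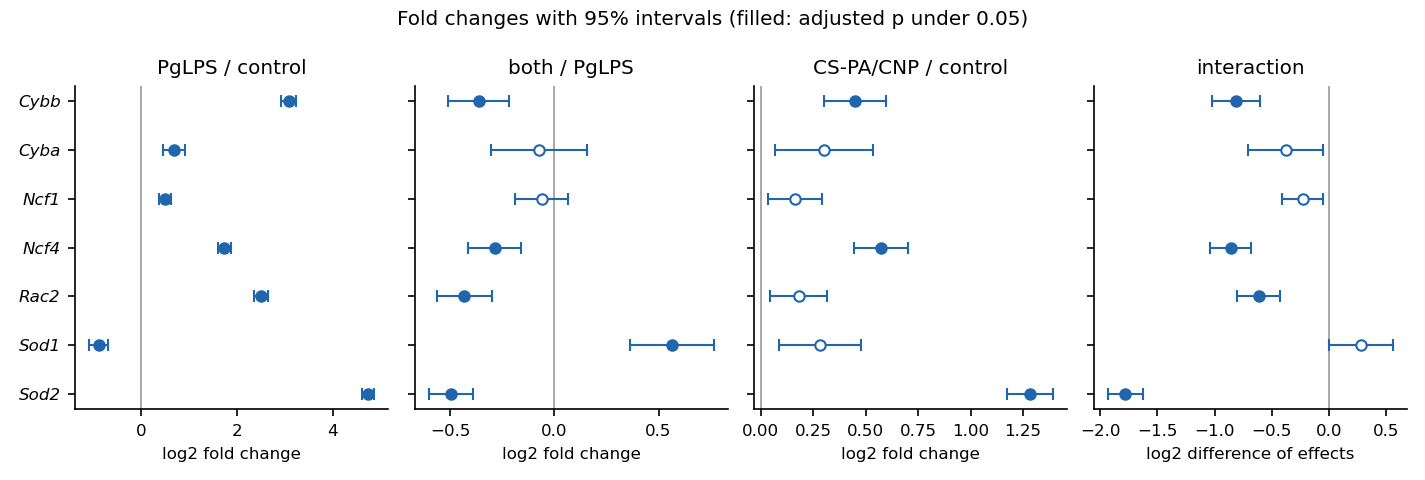
Log2 fold change of each transcript with its 95% interval in 3 comparisons, and in the fourth panel the interaction, the CS-PA/CNP effect with PgLPS minus its effect without. Filled points have an edgeR adjusted p under 0.05, each panel has its own axis, and Sod1 is the 1 transcript that lies on the other side of 0 from the rest with PgLPS (−0.89) and with both agents against PgLPS (0.56).

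Both agents against PgLPS addresses the effect of CS-PA/CNP on top of PgLPS. The 4 transcripts with the largest PgLPS rises were all lower with both agents: Sod2 at 0.708, Rac2 at 0.741, Cybb at 0.777 and Ncf4 at 0.819 of the PgLPS level. Sod1, the transcript that fell with PgLPS, was 1.48-fold higher. The PgLPS libraries enter this comparison and that of PgLPS against control with opposite signs. Error in their mean thus moves the changes in opposite directions. The share of all PgLPS-raised genes that were lower with both agents was not counted. Cyba and Ncf1 were not called. That makes 1 rise and 4 falls among the 7 in the edgeR test, where 19.5% of all tested genes were called, with 48.4% of those calls rises, 61.4% with library totals and 56.8% with upper-quartile factors.

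Sod2 averaged 1841 ± 48.8 CPM with both agents and 2599 ± 114 with PgLPS (SD, n = 3 each), and fell by 0.5 ± 0.05 on the log2 scale (edgeR adjusted p = 6.56e-07). Rac2 averaged 769 ± 52.9 CPM with both agents and 1038 ± 79.2 with PgLPS, and fell by 0.43 ± 0.06 (edgeR adjusted p = 5.17e-05). Cybb fell by 0.36 ± 0.07 (edgeR adjusted p = 8.05e-04) and Ncf4 by 0.29 ± 0.06 (edgeR adjusted p = 0.00184). Sod1 averaged 143 ± 7.82 CPM with both agents and 96.6 ± 16.4 with PgLPS, a rise of 0.56 ± 0.1 (edgeR adjusted p = 2.3e-04). For these 5 transcripts the libraries of the 2 groups did not overlap, and the share of all tested genes without overlap was not counted. None of the 5 stood among the extremes of the table: 12.9% of tested genes changed more than Sod1 and 15.7% more than Sod2, and 30.4% changed more than Ncf4. The difference for Cyba was −0.08, with a 95% interval of −0.31 to 0.16 (edgeR adjusted p = 0.702), and for Ncf1 it was −0.06, with an interval of −0.19 to 0.07 (edgeR adjusted p = 0.543). Neither has a direction, since both were above 0 without PgLPS library 2, at 0.048 and 0.002.

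CS-PA/CNP against control asks what CS-PA/CNP did without PgLPS. Sod2 was 2.43-fold, Ncf4 1.49-fold and Cybb 1.36-fold higher with CS-PA/CNP, so 3 of the 7 rose and none fell in the edgeR test, which called 12.3% of all tested genes. Of those calls 54.3% were rises, with 41.9% under library totals and 51.8% with upper-quartile factors. The other 4 transcripts also had all 3 CS-PA/CNP libraries above all 3 control libraries but were not called. The share of all tested genes separated in this way was not counted, so the separation adds no evidence for these 4.

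Sod2 averaged 236 ± 5.59 CPM with CS-PA/CNP and 96.9 ± 2.63 in control (SD, n = 3 each), a log2 fold change of 1.28 ± 0.05 (edgeR adjusted p = 6.25e-12). Only 1.52% of tested genes changed more. Ncf4 averaged 177 ± 9.27 CPM with CS-PA/CNP and 119 ± 2.22 in control, a change of 0.57 ± 0.06 (edgeR adjusted p = 2.37e-06), and Cybb rose by 0.45 ± 0.07 (edgeR adjusted p = 1.82e-04). The log2 differences that missed the threshold were 0.3 for Cyba (95% interval 0.07 to 0.53, edgeR adjusted p = 0.0896), 0.28 for Sod1 (0.09 to 0.48, adjusted p = 0.053), 0.18 for Rac2 (0.05 to 0.32, adjusted p = 0.0805) and 0.16 for Ncf1 (0.04 to 0.29, adjusted p = 0.0925). These lie close to the threshold, and the count of 3 called rested on the settings. It was 5 with no filter on low counts and 7 in a fit of these 2 groups alone. The calls over all genes in these 2 fits are not given here. A change in calls among the 7 can thus not be told from a change over all genes. Leaving out libraries of the other 2 groups, which are in the same fit, gave 5 calls without the first PgLPS library, 7 without the second PgLPS library and 6 without the second library of both agents. For each of these fits too, the calls over all genes are not given here, so the same limit holds.

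Both agents were also set against control and against CS-PA/CNP, which gives the PgLPS response in the presence of CS-PA/CNP. In each of the 2 comparisons 6 transcripts rose and Sod1 fell, where the edgeR test called 58% of all tested genes against control and 51.9% against CS-PA/CNP. Against control, 51.1% of all calls were rises, with 21.3% under library totals and 32.6% with upper-quartile factors. Against CS-PA/CNP the shares were 51.2%, 20.3% and 29.8% in the same order. Sod2 was 19-fold higher with both agents than in control (log2 4.25 ± 0.06, edgeR adjusted p = 1.98e-20) and 7.81-fold higher than with CS-PA/CNP (log2 2.96 ± 0.05, edgeR adjusted p = 9.14e-19). Cybb was 6.57-fold higher with both agents than in control (log2 2.72 ± 0.07, edgeR adjusted p = 2.26e-16), and 2.27 ± 0.07 higher on the log2 scale than with CS-PA/CNP (edgeR adjusted p = 3.67e-15).

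Rac2 and Ncf4 were higher with both agents than in control by 2.07 ± 0.07 and 1.45 ± 0.06 on the log2 scale (edgeR adjusted p = 2.59e-15 and 2.33e-13). Sod1 was at 0.799 of its control level with both agents (log2 −0.32 ± 0.09, edgeR adjusted p = 0.00613). The small rises of Cyba and Ncf1 depended on the scaling. Against control, Ncf1 rose by 0.44 (edgeR adjusted p = 4.76e-06) but stood at 0.08 and was not called with library totals (edgeR adjusted p = 0.237). Against CS-PA/CNP the rises of Cyba and Ncf1 were 0.31 ± 0.11 and 0.28 ± 0.06 (edgeR adjusted p = 0.0232 and 8.39e-04), but −0.009 and −0.047 with library totals, and not called at 0.12 and 0.08 with upper-quartile factors. The Cyba call was also lost without CS-PA/CNP library 1, without CS-PA/CNP library 2 and without library 2 of both agents (edgeR adjusted p = 0.113, 0.0703 and 0.128).

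The interaction asks whether CS-PA/CNP changed a transcript by a different amount with PgLPS than without. For Sod2, Ncf4, Cybb and Rac2 the CS-PA/CNP effect was lower in the presence of PgLPS. Sod2 fell with CS-PA/CNP in the presence of PgLPS and rose with it in its absence, and the difference of the 2 log2 effects was −1.78 ± 0.07 (edgeR adjusted p = 1.12e-11), larger in size than for all but 2.47% of tested genes. The difference was −0.86 ± 0.09 for Ncf4 (edgeR adjusted p = 6.94e-07), −0.81 ± 0.1 for Cybb (edgeR adjusted p = 7.24e-06) and −0.61 ± 0.09 for Rac2 (edgeR adjusted p = 6.96e-05). These 4 of 7 stand beside 15.8% of all tested genes called, of which 47.2% were above 0, with 63.7% under library totals. Cyba (−0.38 ± 0.16, adjusted p = 0.122), Ncf1 (−0.23 ± 0.09, adjusted p = 0.0875) and Sod1 (0.28 ± 0.13, adjusted p = 0.18) were not called by edgeR. The log2 difference of Sod1 with CS-PA/CNP was 0.56 in the presence of PgLPS and 0.28 in its absence, and the difference between these was called without PgLPS library 2 (0.42, edgeR adjusted p = 0.0106) and with library totals (0.38, adjusted p = 0.047). The interaction of Cyba was called with no filter, when PgLPS library 1 was left out and when library 2 of both agents was (edgeR adjusted p = 0.0133, 0.0345 and 0.0213), and that of Ncf1 in the last of these cases (edgeR adjusted p = 0.039).

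Ratios of 2 transcripts within a library do not depend on how libraries are scaled. The balance of dismutase reads differed most between PgLPS and control. There were 12.5 to 13.1 Sod2 reads per Sod1 read in the libraries with both agents, 23.9 to 30.9 with PgLPS, 0.977 to 1.16 with CS-PA/CNP and 0.519 to 0.582 in control. The ratio was 50.1-fold higher with PgLPS than in control, at 0.474 with both agents relative to PgLPS, and 2-fold higher with CS-PA/CNP than in control. The ratio itself depends on the gene lengths, while its fold between groups does not. Per length of the deposited table it averaged 5.11 with both agents, 10.8 with PgLPS, 0.432 with CS-PA/CNP and 0.215 in control. With principal transcript lengths it was 1.36 to 1.43 with both agents, 2.61 to 3.37 with PgLPS, 0.107 to 0.127 with CS-PA/CNP and 0.0567 to 0.0636 in control. None of the pairs of groups compared overlapped, and each had an exact 2-sided permutation p of 0.1, the smallest that 3 libraries against 3 allow.

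Within the oxidase, partner transcripts did not move in step. Cybb reads per Cyba read averaged 7.13 ± 1.43 with both agents, 8.77 ± 2.11 with PgLPS, 1.82 ± 0.216 with CS-PA/CNP and 1.65 ± 0.296 in control (SD, n = 3 each). The ratio was 5.25-fold higher with PgLPS than in control without overlap (exact permutation p = 0.1), whereas the groups with both agents and PgLPS overlapped (exact permutation p = 0.4), as did those with CS-PA/CNP and control (exact permutation p = 0.4). Ncf4 reads per Ncf1 read averaged 1.05 ± 0.0299 with both agents, 1.23 ± 0.0217 with PgLPS, 0.694 ± 0.0255 with CS-PA/CNP and 0.523 ± 0.0101 in control, with no overlap between any 2 groups. The Rac family balance also changed. Rac2 reads per read of Rac1, its widely expressed relative, averaged 2.43 ± 0.108 with both agents, 2.75 ± 0.207 with PgLPS, 0.761 ± 0.0168 with CS-PA/CNP and 0.613 ± 0.0411 in control. Each of the 3 treated groups was higher than control without overlap, and both agents stood at 0.887 of PgLPS, also without overlap (exact permutation p = 0.1 for each). With ratios not described here, 7 ratios were compared in 5 pairs of groups, and no p could pass 0.05.

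**Figure D3:**
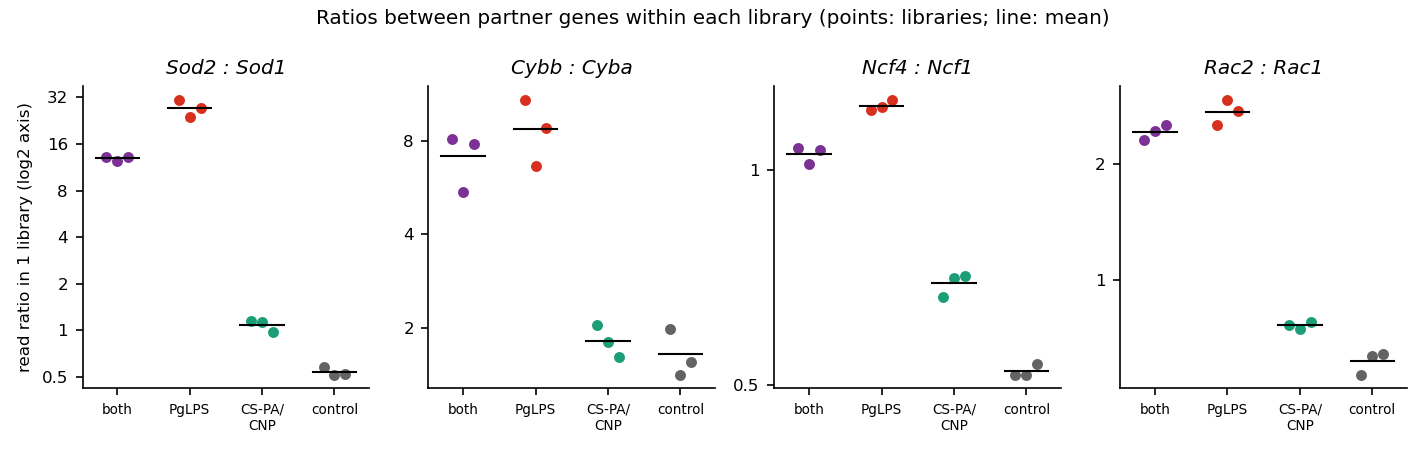
Reads of 1 transcript per read of its partner within each library, on a log2 axis, with 1 point per library and a line at the mean of 3 libraries per group. The Sod2 to Sod1 ratio is highest in a PgLPS library (30.9) and lowest in a control library (0.519), and the Cybb to Cyba panel shows the overlap between both agents and PgLPS.

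Levels of different genes were compared per kilobase of the gene length in the deposited table. With both agents the order was Cybb (725 CPM per kb), Cyba (579), Rac2 (248), Sod2 (184), Ncf4 (161), Ncf1 (84.2) and Sod1 (36), and the first 2 overlapped between libraries. With PgLPS it was Cybb (933), Cyba (610.2), Rac2 (335), Sod2 (259.7), Ncf4 (196), Ncf1 (87.8) and Sod1 (24.3), with no overlap between neighbours. With CS-PA/CNP alone the order was Cyba (466), Cybb (151), Ncf4 (87.6), Ncf1 (69.6), Rac2 (67.1), Sod1 (54.9) and Sod2 (23.6), where Ncf1 and Rac2 overlapped. In control it was Cyba (378), Cybb (110.4), Ncf1 (62.1), Rac2 (59.2), Ncf4 (58.9), Sod1 (45.1) and Sod2 (9.68), where Rac2 overlapped Ncf4. Sod2 was thus the lowest of the 7 in control and the fourth highest with PgLPS. The place of Sod1 rested on its length, 3970 bases in the deposited table against 641 in the principal transcript of GENCODE M21, a length tried after seeing the data. With the principal lengths Sod1 averaged 223 CPM per kb with both agents, 151 with PgLPS, 339.8 with CS-PA/CNP and 279 in control, the second highest of the 7 in the last 2 groups. Sod2 with PgLPS was then the third highest (443.5 CPM per kb) and stayed the lowest in control (16.5 CPM per kb).

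The pattern over the 4 groups was compared with other tested genes reaching 5 CPM in some group, by the root-mean-square difference of centred group-mean log2(CPM + 0.5). The nearest genes and the counts of near genes leave out the transcripts followed here. They also leave out genes without a symbol and symbols of predicted genes, clones and pseudogenes. The nearest genes to Cybb were Gch1 (0.039), N4bp1 (0.058) and Psme2 (0.062), and those to Rac2 included Zeb1 (0.024) and Tap2 (0.055). Mvp (0.045), Grina (0.063) and Csf2rb2 (0.07) were nearest to Ncf4, and Mgmt (0.03), Thop1 (0.037) and Tnfrsf22 (0.039) to Sod1. Few genes lay near Sod2. The difference is not scaled to the size of a gene's changes, so a low count can reflect large changes and does not show an unusual shape. Acpp (0.155), Met (0.189) and Mlkl (0.202) were nearest, and 2 genes lay within 0.2, against 61 for Cybb, 100 for Rac2, 157 for Ncf4 and 412 for Sod1. The shallow patterns of Cyba and Ncf1 had 2123 and 3287 genes within 0.2, Ndufaf3 (0.015) and Sec22b (0.01) being the nearest. Cyba and Ncf1 differed from each other by 0.07, Cybb and Rac2 by 0.26, and Sod1 and Sod2 by 2.36.

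Of 23 symbols listed as oxidase partners and regulators, 22 were found among the deposited genes, and all 22 were tested. With PgLPS against control 14 rose and 4 fell in the edgeR test (median log2 fold change 0.47, against −0.004 over all tested genes, of which 63.8% were called). Rac1 rose by 0.33 ± 0.06 with PgLPS (edgeR adjusted p = 3.92e-05), though it stood at −0.08 with library totals and was not called with upper-quartile factors (0.1, edgeR adjusted p = 0.113). The smallest adjusted p-values were those of Prex1 and Vav1, exchange factors that load Rac with GTP, at 1.68 ± 0.06 and 1.42 ± 0.06, and of Arhgdib, which holds Rac and related proteins in the cytosol, at 1.53 ± 0.06 (edgeR adjusted p = 1.42e-14, 1.42e-13 and 2.98e-14). Exchange factors did not all rise: Dock2 fell by 1.19 ± 0.05 (edgeR adjusted p = 3.69e-13), and Vav2 (0.06 ± 0.09) and Vav3 (−0.18 ± 0.09) were not called (edgeR adjusted p = 0.553 and 0.087). Dock2, Vav2 and Vav3 are named here after their values were seen.

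With both agents against PgLPS, 4 of the 22 rose and 7 fell (median −0.07, against −0.005 over all tested genes, of which 19.5% were called). Prex1 fell by 0.49 ± 0.06 (edgeR adjusted p = 6.95e-06) and Rac1 by 0.26 ± 0.06 (edgeR adjusted p = 0.00253), while Pak1, a kinase that Rac activates, rose by 0.37 ± 0.07 (edgeR adjusted p = 0.00101). The largest rise was that of Prdx6, a peroxiredoxin whose phospholipase activity is known to assist the oxidase. It averaged 307 ± 18.3 CPM with both agents, 115.8 ± 5.72 with PgLPS, 248.5 ± 12.4 with CS-PA/CNP and 83.4 ± 5.47 in control. Prdx6 was thus higher wherever CS-PA/CNP was present, by 1.4 ± 0.07 with PgLPS and by 1.58 ± 0.07 without (edgeR adjusted p = 6.29e-11 and 1.5e-11). With CS-PA/CNP against control 7 of the 22 rose and 3 fell (median 0.08, against 0 over all tested genes, of which 12.3% were called), among them Prkcd, a kinase that phosphorylates the oxidase organizer, at 0.36 ± 0.05 (edgeR adjusted p = 4.22e-05) and Dock2, a Rac exchange factor, which fell by 0.38 ± 0.05 (edgeR adjusted p = 5.27e-05). In the interaction 3 of the 22 were called above 0 and 7 below, beside 15.8% of all tested genes called, led by Dock2 at 0.6 ± 0.08, Mapk14 at −0.54 ± 0.08 and Prex1 at −0.59 ± 0.09 (edgeR adjusted p = 9.28e-06, 3.79e-05 and 5.32e-05). Of 9 other NADPH oxidase family genes, Nox1 and Noxo1 alone had enough reads to be tested, and neither was called in any of the 6 comparisons.

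A list of metal-handling genes and the third dismutase held 10 genes, of which 8 were tested. With PgLPS 5 rose and 2 fell in the edgeR test (median 0.7), beside 63.8% of all tested genes called. The largest rises were those of the copper transporters Slc31a2 at 3.51 ± 0.07 and Slc31a1 at 3.16 ± 0.07, and of Slc11a2, an importer of divalent metals, at 1.89 ± 0.06 (edgeR adjusted p = 1.62e-18, 4.99e-18 and 1.4e-15). The 2 that fell were Slc39a8 at −0.94 ± 0.15 and Ccs at −0.48 ± 0.17 (edgeR adjusted p = 1.9e-05 and 0.0187). The libraries of Ccs overlapped between PgLPS and control. Slc39a8 and Ccs are named after their values were seen. Slc31a1 averaged 387 ± 21.5 CPM with both agents, 607 ± 15.7 with PgLPS, 83.2 ± 0.988 with CS-PA/CNP and 68 ± 5.96 in control. With both agents against PgLPS, 3 of the 8 fell and none rose, beside 19.5% of all tested genes called: Slc31a1 by 0.65 ± 0.06, Slc31a2 by 0.43 ± 0.06 and Slc39a14, an importer of manganese and other metals, by 0.48 ± 0.12 (edgeR adjusted p = 3.68e-07, 5.29e-05 and 0.00639). With CS-PA/CNP against control 3 rose and none fell, beside 12.3% of all tested genes called, by 0.52 ± 0.07 for Slc31a2, 0.29 ± 0.07 for Slc31a1 and 0.27 ± 0.06 for Slc11a2 (edgeR adjusted p = 2.38e-05, 0.00545 and 0.00423), and Slc31a1 lost its call without control library 3 (edgeR adjusted p = 0.0519). Sod3 was at or near the limit of counting, with 11 reads over the 3 libraries with both agents, 22 with PgLPS, 1 with CS-PA/CNP and 0 in control. Against a floor of 3 reads over the control group (0.0528 CPM) the observed level was 4.41-fold higher with both agents and 9.23-fold higher with PgLPS. The floor allows for counting error in control alone. The 11 and 22 reads were taken as exact, so these folds are not lower bounds, and no test was made.

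**Figure D4:**
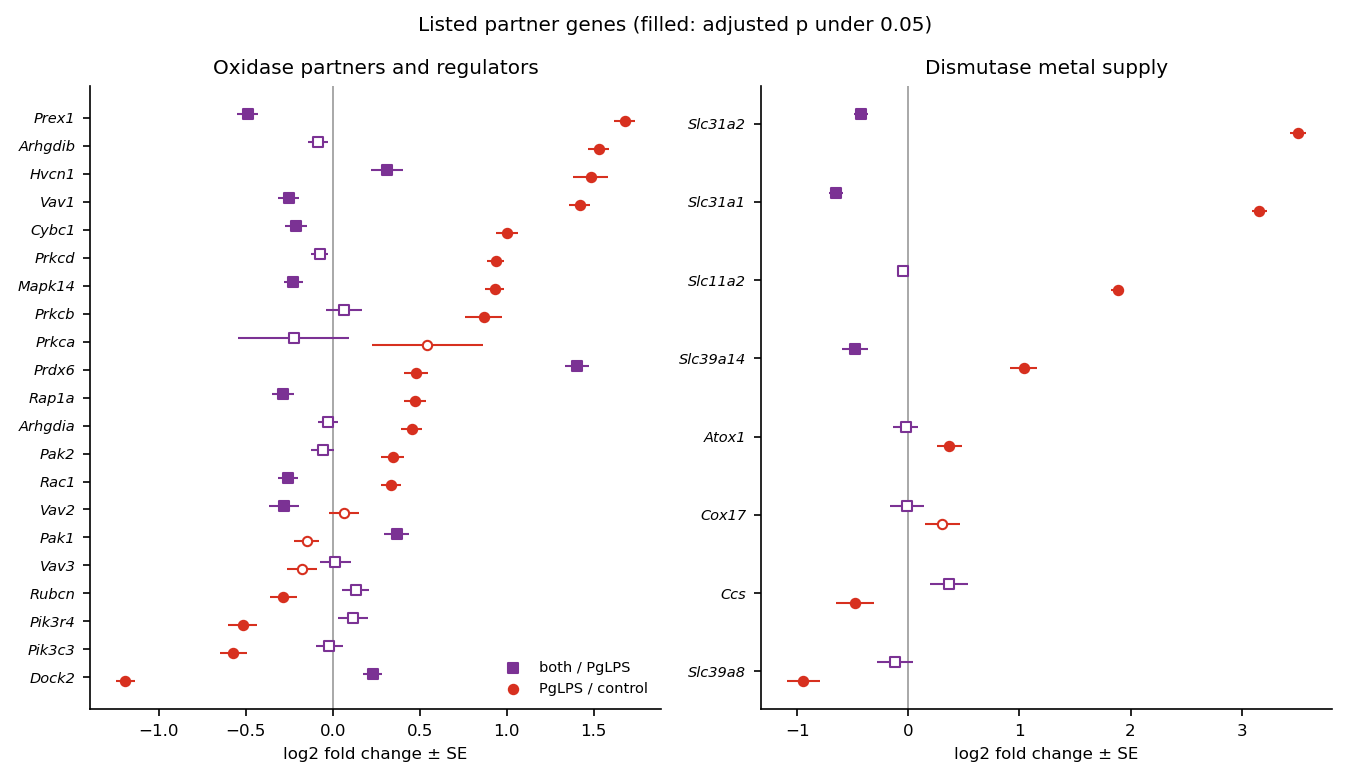
Log2 fold change ± SE of 21 of the 22 tested oxidase partners and regulators (left) and of the metal supply genes (right), for both agents against PgLPS (squares) and PgLPS against control (circles), filled where the edgeR adjusted p was under 0.05. Prdx6 stands out on the left with both agents (1.4), and Slc31a2 and Slc31a1 on the right with PgLPS (3.51 and 3.16), where both agents against PgLPS gave −0.43 and −0.65.

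Hydrogen peroxide, the product of the dismutases, is removed by catalase, glutathione peroxidases and the peroxiredoxin and thioredoxin system. Of 11 such genes 5 rose and 5 fell with PgLPS against control in the edgeR test (median 0.14), beside 63.8% of all tested genes called, led by Prdx5 at 2.99 ± 0.08, Prdx1 at 1.35 ± 0.05 and Txn1 at 1.28 ± 0.09 (edgeR adjusted p = 4.84e-17, 5.14e-14 and 1.53e-10). With both agents against PgLPS 5 rose and 1 fell (median 0.09), beside 19.5% of all tested genes called. Cat, the catalase gene, rose by 1.13 ± 0.06 and Prdx1 by 0.94 ± 0.05, while Prdx5 fell by 0.56 ± 0.07 (edgeR adjusted p = 1.81e-10, 3.42e-10 and 8.51e-06). With CS-PA/CNP against control 5 rose and none fell (median 0.21), beside 12.3% of all tested genes called, with Prdx1 at 1.22 ± 0.05, Cat at 1.06 ± 0.06 and Txnrd1, a thioredoxin reductase, at 0.78 ± 0.07 (edgeR adjusted p = 1.53e-11, 5.36e-10 and 1.4e-07).

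Of 13 transcription factors known to act on oxidase or dismutase genes, 7 rose and 2 fell with PgLPS (median 0.28), a share near the 63.8% called among all tested genes. Nfkb1, an NF-kB subunit, rose by 1.67 ± 0.06 and the interferon regulatory factor Irf1 by 2.28 ± 0.1, while the myeloid factor Cebpa fell by 1.54 ± 0.08 (edgeR adjusted p = 2.58e-14, 4.34e-13 and 5.48e-12). With both agents against PgLPS 1 rose and 4 fell (median −0.05), beside 19.5% of all tested genes called: Cebpa rose by 0.62 ± 0.08, Nfkb1 fell by 0.62 ± 0.06 and Rela by 0.44 ± 0.07 (edgeR adjusted p = 2.05e-05, 5.94e-07 and 6.65e-05). With CS-PA/CNP against control, Spi1, which encodes PU.1, was the 1 factor called, beside 12.3% of all tested genes (0.28 ± 0.08, edgeR adjusted p = 0.0274), and it was no longer called without control library 1 or 3 or without any 1 of the 3 CS-PA/CNP libraries (edgeR adjusted p up to 0.164).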

How the data were processed

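The values are read counts per gene that the authors deposited as whole numbers in 1 table of 21899 genes, with no normalization. Tools named in the submitters' processing notes, without saying which did what, are HTSeq 0.9.1, HISAT2 2.0.5, DESeq 1.30.0 and cutadapt 1.15. Strandedness, genome build and annotation were not given in the sources used here. Count columns were assigned to groups by their letters (LM as both agents, L as PgLPS, M as CS-PA/CNP, C as control), which is an assumption, since no label explains them. Library numbers are those of the columns and could not be matched to the replicate numbers of the sample titles. The other 12 columns of values per sample were not used.

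Differences in counts were assessed by edgeR 4.0.16 (quasi-likelihood test, R 4.3.3), in 1 fit of all 12 libraries with a mean per group, TMM scaling and the filterByExpr filter, which kept 11656 genes (99.97% of reads). The 6 comparisons were 2-sided, with Benjamini-Hochberg adjustment over all tested genes and a threshold of 0.05. Errors of log2 fold changes are standard errors, and brackets with 2 bounds are 95% intervals. Since separate cultures or animals are not stated, p-values measure only the spread between these libraries, which may be technical. Replicate libraries always differed by more than sampling noise (chi-square per gene 2.75 to 17). Floors on counts reflect counting error alone, as amplified reads lacking molecular identifiers do not represent independent molecules.

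The fit was tested on simulated data with a fixed spread for all genes and equal numbers of genes raised and lowered in the PgLPS group alone. No shift of composition was built in, so the simulation did not test the scaling. The alternatives were DESeq2 1.42.0, other scalings, no filter, fits of the compared groups alone and leaving out each library. The genes followed, the lists and the motifs were chosen with earlier results of these data known. Text names all 7 genes, Rac1, and from each list at most the 3 tested genes with the smallest adjusted p per comparison; some items the rule names are not reported here.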

Additional observations from a re-analysis of the deposited data

Results flagged for a closer look

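For 4 of the 7 transcripts the effect of CS-PA/CNP differed between cells with and without PgLPS, by the interaction term of the edgeR fit. On the log2 scale the effect with PgLPS minus the effect without was −1.78 for Sod2 (adjusted p = 1.12e-11), −0.86 for Ncf4 (adjusted p = 6.94e-07), −0.81 for Cybb (adjusted p = 7.24e-06) and −0.61 for Rac2 (adjusted p = 6.96e-05). Sod2, Ncf4 and Cybb were called higher with CS-PA/CNP than in control, and all 4 were called lower with both agents than with PgLPS.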

How the results depend on the processing

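Over the 7 transcripts and 6 comparisons, DESeq2 and RLE factors changed no direction, and 1 call was added by DESeq2 (Sod1 with CS-PA/CNP against control, DESeq2 adjusted p = 0.0409). With library totals, both agents against CS-PA/CNP turned to −0.009 for Cyba and −0.047 for Ncf1, and Rac1 turned to −0.08 with PgLPS against control and −0.11 with both agents against CS-PA/CNP. Without PgLPS library 2, both agents against PgLPS turned to 0.048 for Cyba (−0.191 to 0.048 over all left-out libraries) and 0.002 for Ncf1 (−0.103 to 0.002). Of the 7, the number called with CS-PA/CNP against control was 5 with no filter, 7 with only the compared groups in the fit, and 3 to 7 leaving out 1 library. Over all genes that comparison called 949 to 1641 leaving out 1 library, the fewest without CS-PA/CNP library 3, against 1431 with all. Its calls over all genes with no filter and with only the compared groups are not given here. Leaving out 1 library gave 4 to 6 calls among the 7 in the interaction and 6 to 7 with both agents against CS-PA/CNP. The calls over all genes in those cases are not given either. No paired analysis was possible because the count columns could not be linked to the numbers that sample titles carry. The 4 log2 differences of 0.16 to 0.3 that were not called with CS-PA/CNP against control had adjusted p-values of 0.053 to 0.0925, and all 4 were called in the fit of those 2 groups alone. The causes of these changes were not tested.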
